A study of Mus musculus with 10 samples.

Results

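Expression of 7 genes of antigen presentation by MHC class II was described in epididymal white adipose tissue (WAT), the fat pad along the epididymis. The genes were *H2-Aa*, *H2-Ab1*, *H2-Eb1*, *H2-DMa*, *H2-DMb1*, *Cd74* and *Ciita*, and they were found by their symbols among the non-control probes of the arrays, where they have 8 of 55681 probes and are 7 of 34797 gene names. All 10 arrays come from a single group of male C57BL/6JOlaHsd mice, named C57BL/6J in another field of the labels. The mice were 9 weeks old at the start, received a low fat diet for 3 weeks and the BIOCLAIMS high fat diet for 12 weeks, and were housed at 29 °C. All of them were injected on 5 days with desferrioxamine (DFO), an iron chelator, at 100 mg/kg, and were killed on day 6, with food removed 2 h before. RNA of each mouse was labelled with Cy5 and hybridised against a Cy3-labelled pool that holds RNA of the wider study, control mice included, and that was the same on all arrays. The pool is not a control group, the dyes were not swapped, and no log ratio was therefore tested against 0. Mice are named by their replicate number.

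MHC class II molecules are pairs of an alpha and a beta chain that display peptides from engulfed proteins to CD4+ T cells, and they are made mainly by dendritic cells, B cells and macrophages. The invariant chain CD74 guides the new molecule to the endosome, where cathepsins trim it, and H2-DM then exchanges the remaining fragment for a peptide. CIITA is the transactivator of the pathway: it binds no DNA itself but sits on a complex of RFX, NF-Y and CREB proteins at the X and Y boxes of class II promoters. In adipose tissue of obese animals, class II genes are known from macrophages and dendritic cells of the stroma, and adipocytes have been described to carry class II molecules as well.

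RefSeq promoters of 250 bases before the gene start (GRCm38.p6) were searched on both strands for the core of the X box, CTNGNAAC, and for the Y box, TGATTGG, with letters chosen from textbook knowledge while these promoters were in view. *H2-Aa*, *H2-Eb1* and *H2-DMb1* each held both boxes, X upstream of Y, in the sense of the gene, and are shown because the order and spacing of the boxes can be read from them, with both boxes in capitals.
H2-Aa, chr17:34287824-34288073, minus strand: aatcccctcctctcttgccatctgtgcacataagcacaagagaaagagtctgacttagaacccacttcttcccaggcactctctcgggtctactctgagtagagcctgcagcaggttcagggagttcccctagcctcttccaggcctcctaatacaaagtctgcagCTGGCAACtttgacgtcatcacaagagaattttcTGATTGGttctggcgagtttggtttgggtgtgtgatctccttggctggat
H2-Eb1, chr17:34305617-34305866, plus strand: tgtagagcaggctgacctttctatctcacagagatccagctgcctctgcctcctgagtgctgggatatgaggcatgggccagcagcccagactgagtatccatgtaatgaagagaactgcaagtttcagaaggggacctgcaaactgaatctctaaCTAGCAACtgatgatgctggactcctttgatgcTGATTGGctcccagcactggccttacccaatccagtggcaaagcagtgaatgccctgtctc
H2-DMb1, chr17:34152941-34153190, plus strand: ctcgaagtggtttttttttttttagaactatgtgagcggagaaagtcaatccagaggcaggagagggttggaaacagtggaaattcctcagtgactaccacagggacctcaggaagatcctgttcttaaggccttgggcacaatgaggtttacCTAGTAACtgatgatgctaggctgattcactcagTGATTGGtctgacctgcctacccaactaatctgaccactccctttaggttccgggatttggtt
Between the boxes lay 26 bases in *H2-Aa*, 25 in *H2-Eb1* and 26 in *H2-DMb1*. The X core occurred in 10.9% of all 32851 promoters of this length, the Y box in 7.23%, and an X core followed by a Y box within 40 bases in 27 of them, or 0.0822%. Neither of the windows listed for *H2-DMa* held these letters, which says nothing about binding there. Outside the 7 genes, *H2-Ob* of the same locus held the pair too, with 23 bases between the boxes. *H2-Eb2* held both boxes with Y upstream of X, and *H2-DMb2* and *H2-Oa* held the Y box alone. Promoters of *H2-Ab1*, *Cd74* and *Ciita* were not analysed here. A match of letters is a description and not a binding site.

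Each gene was read by 60-base probes whose positions the scanner files give in mm9 (NCBI37). The probe of *H2-Aa* lies at chr17:34421285-34421344 and starts at base 227 of its transcript. The probe of *H2-DMa* starts at base 329 and its 60 bases spread over 564 bases of the genome, chr17:34274300-34274863, so that it crosses an intron. Both are shown because they start earlier in their transcripts than the other probes listed here.
H2-Aa probe: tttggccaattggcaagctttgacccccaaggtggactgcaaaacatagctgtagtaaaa
H2-DMa probe: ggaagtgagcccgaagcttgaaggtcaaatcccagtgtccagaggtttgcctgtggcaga
*H2-Ab1* has 2 probes, at chr17:34406296-34406355 and chr17:34406305-34406363. They share 51 bases with 1 difference, T51C, counted from the 5′ end of the first probe, so they are repeat readings of nearly the same site. The last 30 bases of the first probe are set against the same stretch of the second, with the differing base in capitals.
H2-Ab1 first probe: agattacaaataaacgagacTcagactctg
H2-Ab1 second probe: agattacaaataaacgagacCcagactctg
The probes of *H2-Eb1* (chr17:34453075-34453134), *H2-DMb1* (chr17:34297109-34297168) and *Ciita* (chr16:10526568-10526627) start at bases 1124, 1219 and 4269 of their transcripts. The probe of *Ciita* is of low complexity: 30 of its 60 bases are 6 copies of a 5-base unit. It was the only one of the 55681 probes with a run of this unit that long.
Exons and UTRs were not assigned, since no annotation of this build was used here. On each of the 10 arrays all 8 probes passed the scanner software's flag for signal clear of the background, in Cy5 and in Cy3, and no spot was saturated.

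The mice did not form an even spread. The first principal component of the log2 ratios of 25062 probes well above background in both channels on at least 5 arrays held 76.2% of the variance, and its largest gap, 0.513 of its range, set mice 4, 5, 6 and 7 apart from mice 1, 2, 3, 8, 9 and 10. These probes include the class II genes, so the division is a description of these arrays and not a grouping of the study. The labels give no reason for it. The arrays lay on 5 slides of 2, and slides 2 and 4 each held a mouse of either kind. Median Cy5 signals were 54.8 to 81.3 against backgrounds of 32 to 37, with the lowest signal in mouse 3. Over the slides, 0 of 25062 probes passed limma's moderated F test (1013 at an unadjusted p under 0.05), and the lowest adjusted p of the 7 genes was 0.687. Nothing in the labels tells whether the samples came from separate cages or days, so p-values measure the spread between these mice, the preparation of their RNA included.

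The chains of the class II molecule were low in mice 4 to 7. The log2 ratio of *H2-Ab1*, the I-A beta chain, was -0.77, -0.24, -0.15 and -0.42 in mice 4, 5, 6 and 7, and 0.52, 0.27, 0.32, 0.06, 0.28 and 0.36 in mice 1, 2, 3, 8, 9 and 10. The 2 sets of mice did not overlap, with mouse 4 lowest and mouse 1 highest, 2.43-fold apart. The second probe gave the same division, from -0.75 to -0.06 in mice 4 to 7 and from 0.01 to 0.65 in the others. It differed from the first probe by 0.33 in mouse 3 and by 0.11 or less in the other mice. *H2-Eb1*, the I-E beta chain, was -0.87, -0.51, -0.34 and -0.67 in mice 4, 5, 6 and 7 and between 0.06 and 0.38 in the others. Here the sets were farthest apart of all 7 genes, by 0.40 on the log2 scale. *H2-Aa*, the I-A alpha chain and partner of *H2-Ab1*, was -0.83, -0.32, -0.18 and -0.54 in mice 4, 5, 6 and 7. In mice 1, 2, 3, 8, 9 and 10 it was 0.23, 0.24, -0.06, -0.22, -0.16 and 0.03, so that mouse 8 lay below mouse 6 and the sets overlapped by 0.04.

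Of the genes that load the molecule, *Cd74* and *H2-DMa* followed the same order and *H2-DMb1* did not. *Cd74* was -0.94, -0.32, -0.24 and -0.46 in mice 4, 5, 6 and 7 and between -0.12 in mouse 8 and 0.34 in mouse 1 in the others. *H2-DMa*, the alpha chain of the peptide exchange factor, was -0.79, -0.38, -0.08 and -0.40 in mice 4, 5, 6 and 7. It lay between 0.02 and 0.28 in the other mice, 0.10 above the highest of the 4. *H2-DMb1*, the beta chain, was -0.36, -0.31, 0.14 and -0.43 in mice 4, 5, 6 and 7 and 0.16, 0.29, -0.05, -0.10, -0.36 and -0.09 in mice 1, 2, 3, 8, 9 and 10. Mouse 6 was thus among its higher values and mouse 9 among its lowest, and the range over all mice was 1.65-fold. A paralog, *H2-DMb2*, lies beside it, and how far its RNA binds the *H2-DMb1* probe was not tested.

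*Ciita* had the narrowest range, 1.54-fold, from -0.75 in mouse 4 to -0.13 in mouse 1, with a median of -0.28. Apart from mouse 4 its values lay between -0.43 in mouse 7 and -0.13, and mouse 8, at -0.42, was within the range of mice 4 to 7. All of its log2 ratios were below 0, which cannot be told apart from a dye bias of its probe. Its Cy5 brightness, 120.5 to 367.6 before normalization, stood against a background of 32 to 37.

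**Figure D1:**
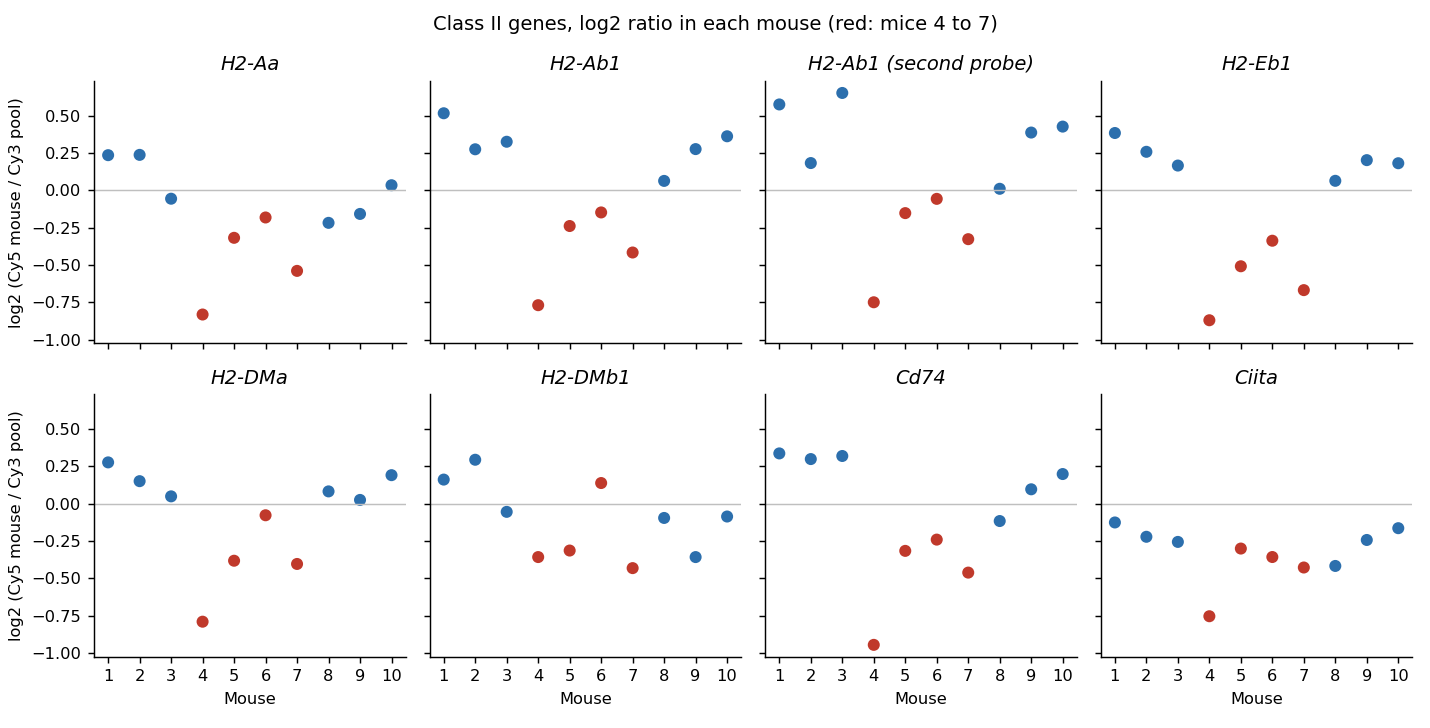
Log2 ratio of Cy5 (mouse) over Cy3 (reference pool) on the vertical axis for mice 1 to 10, 1 panel per probe and 1 point per mouse, with mice 4 to 7 in red. In the panels of *H2-Ab1*, *H2-Eb1*, *H2-DMa* and *Cd74* the red points lie below all blue points, while in those of *H2-Aa*, *H2-DMb1* and *Ciita* they overlap.

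Counted over genes, 4 of 7 had their 4 lowest values in mice 4 to 7, and none had its 4 highest there. The same order was found for 23.2% of all 25062 probes, and 19.2% had their 4 highest values in these mice. Mouse 4 was lowest for 6 of the 7 genes and mouse 7 for *H2-DMb1*. Mice 4 and 7 also stood at the end of the first component over all probes (scores of 0.40 and 0.45). The share of all probes lowest in either mouse was not counted, under any normalization, so this is not shown to be particular to these genes. In bulk tissue, fewer cells of a type and less RNA per cell cannot be told apart.

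The division of the class II genes depended on the normalization. It held for the same count of 4 genes without background subtraction and with the log ratio of the scanner software. With the values that were deposited as normalized, which followed the Cy5 channel alone, and after median centring of the log ratios, the sets overlapped for all 7 genes. The share of all probes with their 4 lowest values in mice 4 to 7 was 15.6% in the deposited values, and 24.5% had their 4 highest there. In the deposited values the overlap was 0.06 for *H2-Ab1*, 0.07 for *H2-DMa*, 0.10 for *Ciita*, 0.13 for *H2-Eb1* and *Cd74*, 0.19 for *H2-Aa* and 0.70 for *H2-DMb1*, and mouse 4 was lowest for 6 of 7 genes. The 4 lowest *H2-Ab1* values were then those of mice 3, 4, 5 and 7, and mouse 6 lay above mouse 3. Median centring put mouse 3 among the 4 lowest for every one of the 7 genes and mouse 4 lowest for 4 of them, and it moved the median of all probes by 0.37 on the log2 scale. It also moved the share of probes with their 4 lowest values in mice 4 to 7 to 7.05% and the share with their 4 highest to 17.4%.

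**Figure D2:**
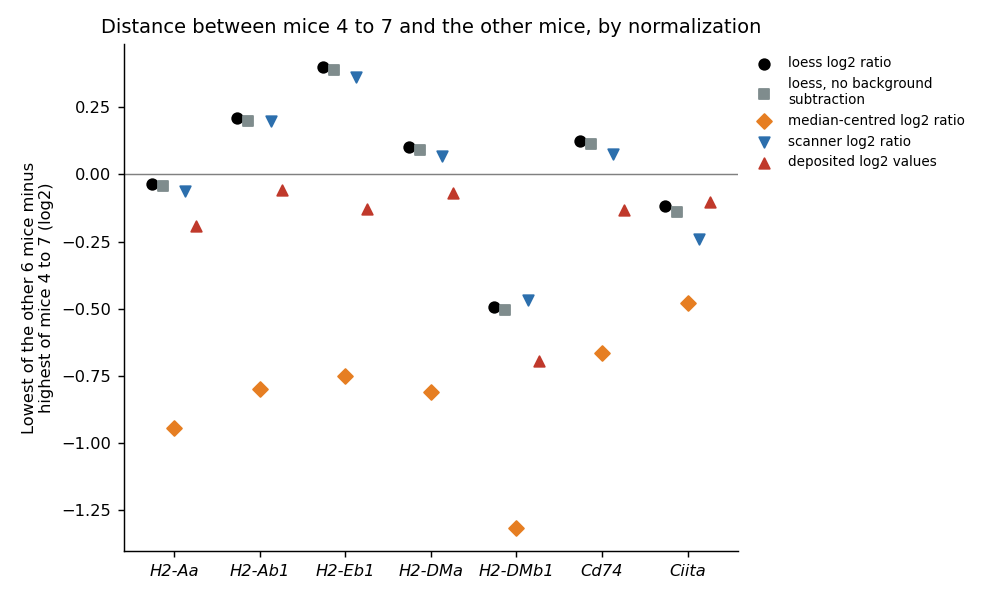
Lowest value of the other 6 mice minus the highest value of mice 4 to 7, on the log2 scale, for each gene and 5 ways of normalization (marker shapes). Points above 0 mark genes whose mice do not overlap: *H2-Ab1*, *H2-Eb1*, *H2-DMa* and *Cd74* with the loess and scanner ratios, and no gene with the deposited or median-centred values.

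Within slides, the arrays of mice 3 and 4 and those of mice 8 and 7 could be set side by side. On slide 2, mouse 4 was below mouse 3 for all 7 genes, with a difference of -1.26 for *Cd74*, -1.09 for *H2-Ab1*, -1.03 for *H2-Eb1*, -0.84 for *H2-DMa* and -0.77 for *H2-Aa*. On slide 4, mouse 7 was below mouse 8 for all 7 genes, and the difference was nearer 0 than on slide 2 except for *H2-DMb1*, with -0.34 on slide 4 and -0.30 on slide 2. It was -0.73 for *H2-Eb1*, -0.49 for *H2-DMa*, -0.48 for *H2-Ab1* and -0.34 for *Cd74*. For *H2-Aa* it was -0.32 on slide 4, and for *Ciita* -0.50 on slide 2 and -0.01 on slide 4. Each is a difference of loess log2 ratios between a pair of mice, with no test, and the share of all probes with the same sign was not counted. The direction depended on the normalization, for some genes on slide 2 and for *Ciita* on slide 4. After median centring, mouse 3 was the lowest of all mice for *H2-Aa*, *H2-Eb1* and *H2-DMb1*. The 4 lowest *Ciita* values were then those of mice 3, 4, 5 and 8, so mouse 8 lay below mouse 7. In the deposited values, the 4 lowest for *H2-DMb1* were mice 3, 5, 7 and 9, so mouse 3 lay below mouse 4.

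The spread of the mice was compared with that of the pool, which is the contrast the design allows. The Cy3 values come from the same RNA on all arrays, whereas each Cy5 value comes from the RNA of a different mouse. Scatter from preparing and labelling the RNA of each mouse thus adds to the Cy5 SD. The test cannot tell it apart from variation of a gene between mice. The SD of log2 Cy5 over 10 mice was 0.36 for *H2-Ab1*, 0.34 for *H2-Aa*, 0.45 for *H2-Eb1*, 0.40 for *Cd74*, 0.34 for *H2-DMa* and 0.24 for *H2-DMb1*. The SD of log2 Cy3 over the same arrays was 0.08 for *H2-Ab1* and *H2-Aa*, 0.06 for *H2-Eb1*, 0.05 for *Cd74*, 0.03 for *H2-DMa* and 0.05 for *H2-DMb1*. The pool was most even for *H2-DMa*, whose Cy5 SD was 11.5 times as large. For these 6 genes the difference passed the Pitman-Morgan test with Benjamini-Hochberg adjustment over all 25062 probes, with an adjusted p from 3.00e-06 for *H2-DMa* to 0.00101 for *H2-Aa*. *Ciita* did not pass (SD of 0.22 in Cy5 and 0.17 in Cy3, adjusted p = 0.478). So 6 of 7 genes varied more than the pool, where 59.8% of all probes did. The median SD of log2 Cy5 was 0.34 over the 7 genes and 0.20 over all probes, and that of log2 Cy3 was 0.06 and 0.08.

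**Figure D3:**
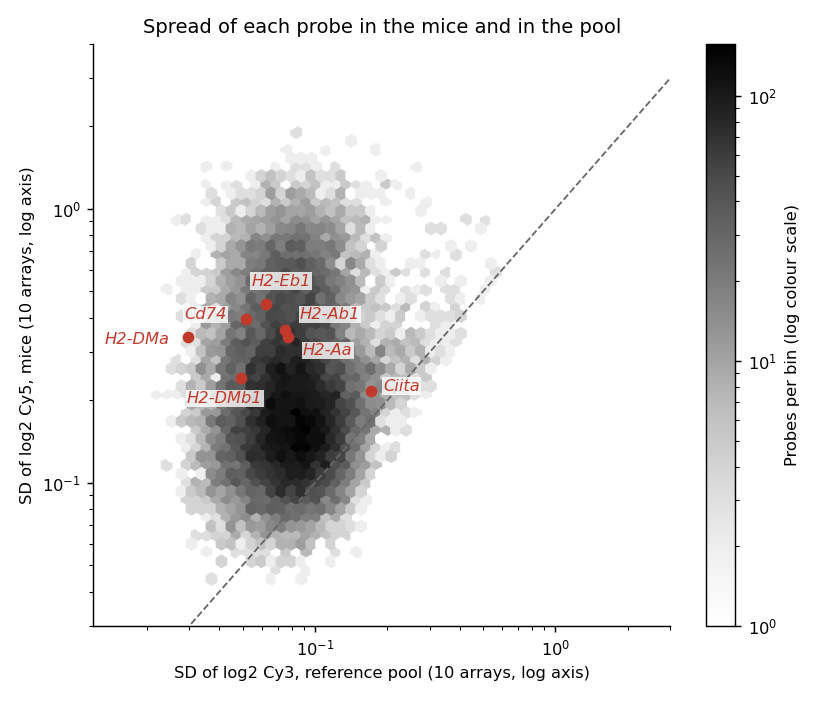
SD of log2 Cy3 (reference pool, horizontal, log axis) against SD of log2 Cy5 (mice, vertical, log axis) over 10 arrays, for all 25062 probes as grey bins and the 7 class II genes as red points, 1 probe a gene. The dashed line marks equal SDs. *Ciita* lies close to the line and the other 6 genes lie above it.

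The spread was smaller without mice 4 to 7, which partly follows from their being set apart in the same data. The median SD of log2 Cy5 went from 0.34 to 0.18 over the 7 genes and from 0.20 to 0.14 over all probes. In mice 1, 2, 3, 8, 9 and 10 alone, the SD of log2 Cy5 was 0.12 for *H2-Ab1*, 0.14 for *H2-Eb1*, 0.09 for *H2-DMa*, 0.18 for *Cd74* and *H2-Aa*, and 0.21 for *H2-DMb1* and *Ciita*. Only *H2-DMb1* passed the same test there (adjusted p = 0.0367), and *Cd74* came next (adjusted p = 0.0637). That is 1 of 7 genes, against 14.2% of all probes. The first *H2-Ab1* probe did not pass (adjusted p = 0.393) and the second did (adjusted p = 0.0384), with an SD of 0.22 in which mouse 3 was highest. The result over 10 mice also rested on the normalization between arrays: without it, 0 of the 7 genes passed (lowest adjusted p = 0.108, for *H2-Eb1*), and 4684 of all probes did in place of 14980.

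Enzymes that process antigen had the opposite order to *H2-Ab1*, *H2-Eb1*, *H2-DMa* and *Cd74*. A gene is called measured here when its brightest probe passed the filter of 5 arrays in both channels. All 6 genes of that list were measured, all had their 4 highest values in mice 4 to 7, and all varied more than the pool. The shares over all probes were 19.2% and 59.8%. *Ctss*, the cathepsin that cuts the invariant chain, was 1.06 to 1.46 in mice 4 to 7 and -1.33 to 0.04 in the others. *Ifi30*, the lysosomal thiol reductase, was 0.97 to 1.29 against -1.20 to 0.05. *Lgmn*, an asparaginyl endopeptidase, was 0.55 to 0.93 against -1.57 to -0.07. *Ctsl* (0.79 to 0.91 against -1.22 to -0.57), *Ctsb* and *Ctsh* had the same order. The 6 genes had it with the deposited values and the scanner ratios, and after median centring as well. With the deposited values and after median centring, however, all 7 class II genes overlapped, so the contrast was not seen there.

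MHC class I presentation displays peptides made inside the cell. Of its 12 genes, 9 had their 4 lowest values in mice 4 to 7 and 0 their 4 highest. Over all probes these shares were 23.2% and 19.2%. *B2m*, the light chain, was -0.92 to -0.46 in mice 4 to 7 and 0.26 to 0.49 in the others. *Nlrc5*, the class I counterpart of *Ciita*, was -0.67 to -0.42 against 0.18 to 0.60. *H2-K1*, *Tapbp*, *Tap2* and *Psmb9* were also below all other mice, whereas *H2-Q7*, *H2-T23* and *Psmb8* overlapped. All 12 varied more than the pool over 10 mice, where 59.8% of all probes did. After median centring 2 of the 12 had their 4 lowest values in mice 4 to 7, and in the deposited values 6 did. The shares over all probes were then 7.05% and 15.6%.

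The factors at the class II promoter and those upstream of *Ciita* had no common order. *Nfya*, an NF-Y subunit, was 0.65 to 1.01 in mice 4 to 7 and -0.38 to 0.10 in the others, and *Creb1* was also highest there. The RFX subunits *Rfxank* (-0.23 to 0.04 against 0.09 to 0.28) and *Rfxap* and the NF-Y subunit *Nfyb* were lowest there. Only 1 of the 3 measured *Nfyb* probes and 1 of the 2 *Creb1* probes had that order. *Rfx5* did not pass the filter. Of 10 measured regulators of *Ciita*, 3 were lowest in mice 4 to 7 and 2 highest. These counts are near the shares over all probes, 23.2% lowest and 19.2% highest. *Irf1*, an interferon-induced activator, was -0.41 to -0.15 against 0.10 to 0.55, and *Irf8*, a factor of the myeloid lineage, was 0.56 to 0.66 against -0.40 to 0.28. *Ifng* did not pass the filter.

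Other genes of the class II locus were at low or even levels. *H2-Ea-ps*, the alpha chain that C57BL/6 mice carry as a defective gene, was well above background on 0 of 10 arrays, and *H2-DMb2* was so on 2. *H2-Oa* and *H2-Ob*, subunits of a modulator of H2-DM, and *H2-Eb2* overlapped between the sets, and of these only *H2-Oa* varied more than the pool (adjusted p = 0.0372). Among genes of turnover and co-stimulation, *Cd83*, which opposes the removal of class II from the surface, was 0.39 to 0.77 in mice 4 to 7 and -1.15 to -0.05 in the others, and *Cd80* had the same order. *Cd86*, the other ligand of CD28, was -0.44 to -0.05 against 0.00 to 0.30, and *March1*, a ubiquitin ligase that removes class II, was -0.03 to 0.05 against 0.08 to 0.29 with 1 of its 2 probes.

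Some lists of cell type markers moved with the same division and others overlapped, and members of a list often differed. For comparison, 23.2% of all probes had their 4 lowest values in mice 4 to 7 and 19.2% their 4 highest. Of 13 macrophage markers 12 were measured, without *Cd163*, and 9 had their 4 highest values in mice 4 to 7. Their mean log2 ratio was 0.50 to 0.72 in these mice and -0.85 to 0.09 in the others. *Emr1*, a macrophage surface receptor, was 1.23 to 1.56 against -1.52 to 0.05, and *Trem2* was 1.10 to 1.52 against -2.43 to 0.09, but *Lyve1*, a marker of resident macrophages, was lowest there (-1.61 to -0.49 against -0.03 to 0.64). Of 10 dendritic cell markers 8 were measured, without *Xcr1* and *Itgae*, and their mean, -0.13 to 0.08 in mice 4 to 7 and -0.10 to 0.20 in the others, overlapped. Within them, *Cd209a*, a marker of monocyte-derived dendritic cells, was -1.23 to -0.76 against -0.21 to 0.98, and *Itgax*, the integrin CD11c, was 0.83 to 1.20 against -1.50 to -0.26. The mean of the 4 measured B cell markers was -0.60 to -0.27 in mice 4 to 7 and -0.30 to 0.30 in the others, which overlapped. Of these 4 markers, 2 had their 4 lowest values in mice 4 to 7. The mean of 6 measured T cell markers of the 7 on the array was -0.47 to -0.34 against 0.02 to 0.58, without *Cd8a*. Of these 6 markers, 4 had their 4 lowest values in mice 4 to 7, while *Cd3e* and *Cd4* overlapped.

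Markers of the tissue itself were low in the same mice, where 23.2% of all probes had their 4 lowest values. All 8 adipocyte markers were lowest in mice 4 to 7, with a mean of -2.16 to -1.20 against -0.10 to 0.65, and *Cfd*, the adipocyte protein adipsin, was -4.69 to -3.36 against -0.70 to 1.44. With the scanner ratios, the deposited values and no background subtraction 7 of the 8 had this order, and after median centring 4. The mean of 6 endothelial markers was -0.85 to -0.54 against -0.09 to 0.30, with 5 of them lowest in mice 4 to 7, and 1 after median centring. That of 6 mesothelial markers was -1.52 to -1.05 against -0.52 to 0.33, with 3 of them lowest in mice 4 to 7 and the others overlapping. The mean of 4 measured neutrophil markers of 6, without *Camp* and *Cxcr2*, overlapped (-0.92 to -0.26 against -0.65 to 0.78). The part of any of these cell types in the class II values was not tested.

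**Figure D4:**
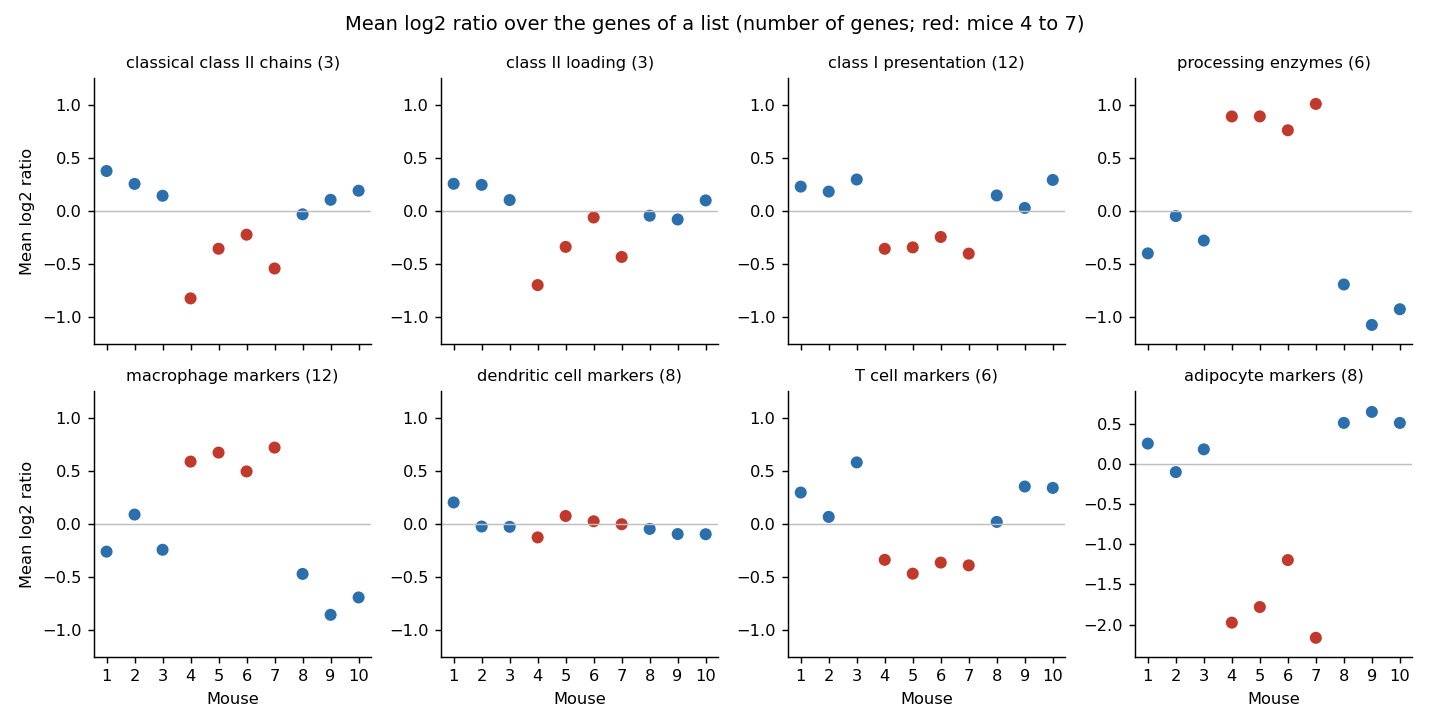
Mean log2 ratio over the measured genes of 8 lists (number of genes in brackets) for mice 1 to 10, with mice 4 to 7 in red and a wider vertical axis for the adipocyte markers. Class II, class I, T cell and adipocyte panels have the red points low, the processing enzymes and macrophage markers have them high, and the dendritic cell markers show no division. In the class II loading panel the points overlap, with mouse 6 (-0.06) above mouse 9 (-0.08).

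Whether the class II genes moved together was tested in mice 1, 2, 3, 8, 9 and 10 alone, since a relation over all 10 mice would restate the division. The slope on *H2-Ab1* is the log2 change of a gene per log2 unit of *H2-Ab1*. It was above 0 for all 6 other genes, but none passed limma's test after adjustment over 25060 probes (adjusted p = 1.00 for each). The slope was 0.99 ± 0.38 (SE) for *Cd74*, 0.93 ± 0.45 for *H2-Aa*, 0.65 ± 0.31 for *Ciita*, 0.63 ± 0.33 for *H2-Eb1*, 0.48 ± 0.60 for *H2-DMb1* and 0.43 ± 0.35 for *H2-DMa*. The median slope was 0.64 over these genes and -0.03 over all probes. Of all probes 0 passed, or 0%, and 465 had an unadjusted p under 0.05, with *Cd74* among them.

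By exact permutation of the 6 mice, whose smallest p is 0.00139, 0 probes passed the adjustment for Pearson's r and 0 for Spearman's rho (695 and 592 at an unadjusted p under 0.05). A p of that size passes the adjustment only if a great many probes reach it together, so these counts of 0 say little. *Ciita* had the highest r with *H2-Ab1* of the class II genes, 0.95 (rho = 0.77, exact permutation p = 0.00833 and 0.103, adjusted p = 1.00 and 0.993). For *H2-Eb1* r was 0.87, for *Cd74* 0.84, for *H2-Aa* 0.71, for *H2-DMa* 0.67 and for *H2-DMb1* 0.31, and rho was 0.49, 0.71, 0.43, 0.54 and 0.26. Their exact permutation p for r was 0.0611, 0.0361, 0.106, 0.147 and 0.590, and for rho 0.356, 0.136, 0.419, 0.297 and 0.658, with the same adjusted values as for *Ciita*. These relations rested on mice 1 and 8, the ones with the highest and lowest *H2-Ab1*. Without them r was 0.62 for *Ciita*, 0.47 for *H2-DMa*, 0.14 for *Cd74*, -0.10 for *H2-Aa*, -0.11 for *H2-DMb1* and -0.71 for *H2-Eb1*.

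**Figure D5:**
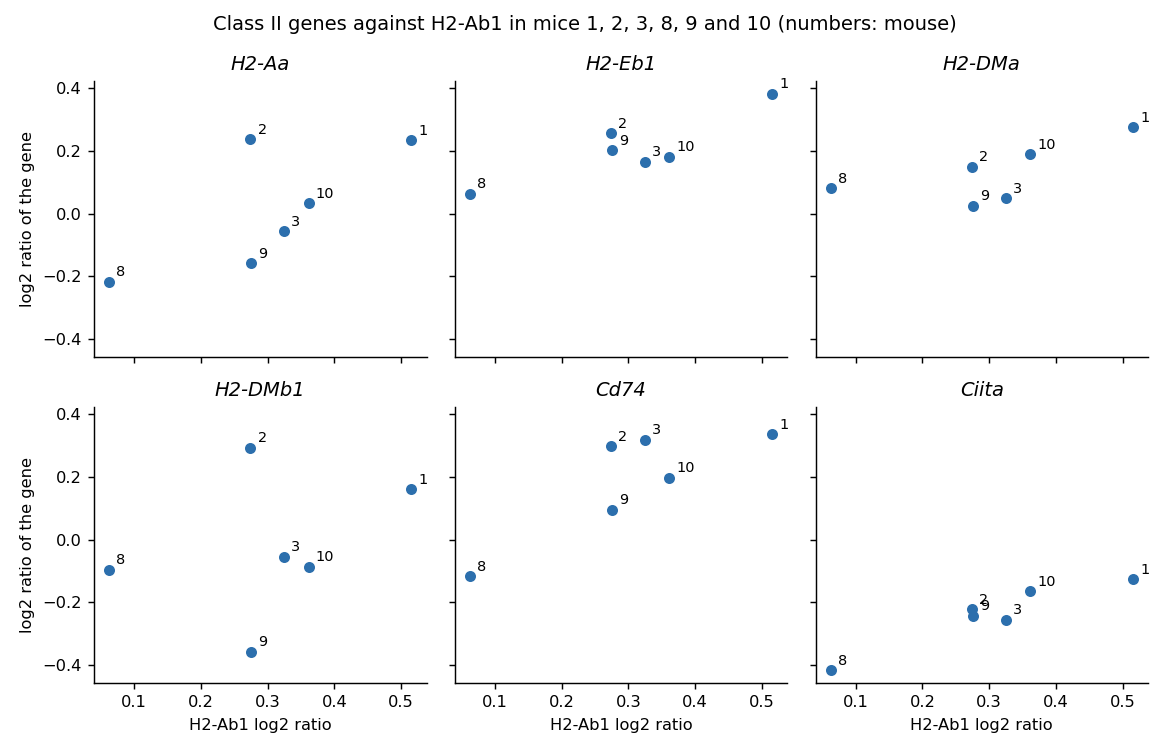
Log2 ratio of *H2-Ab1* (horizontal) against that of each other class II gene (vertical) in mice 1, 2, 3, 8, 9 and 10, 1 point per mouse with its number. Mouse 8 is lowest and mouse 1 highest on the horizontal axis in every panel, and the other 4 mice lie between 0.27 and 0.36.

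Outside the gene lists, 9 of 13700 genes had an r over 0.95 with *H2-Ab1* in these 6 mice, led by *Tm6sf2* (r = 0.99), *6530401N04Rik* (0.99), *Avpi1* (0.97), *Dact1* (0.96), *Gm10336* (0.96), *Trip6* (0.96), *Mrps10* (0.96), *Erdr1* (0.95) and *Th1l* (0.95), with *1100001G20Rik* next at 0.94. The lowest r was that of *Ndufaf3* (-0.99), followed by *Phb2* (-0.99), *Gstm3* (-0.98), *Arsj* (-0.97) and *Atxn2* (-0.96). Only *Dact1*, *Trip6* and *Mrps10* of the first 10 also had their 4 lowest values in mice 4 to 7. With 6 mice and this many genes, none of these relations passed the adjustment.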

How the data were processed

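The authors deposited Agilent Feature Extraction 10.7.3.1 files with the intensity of each spot and its background in both dyes and the log10 ratio of the software. They also deposited a log2 table of normalized values for 30733 spots, whose normalization is not given in the sources used here. Each of its columns followed log2 Cy5 brightness (r from 0.998 to 0.999). Mean intensities were corrected with normexp (offset 50) and loess in limma 3.58.1 (R 4.3.3), and channels were scaled by Aquantile for the variance test. Control spots, once background correction was done, and outlier spots were excluded, and the other 59305 spots gave 55681 probes. Probes well above background in both channels on at least 5 of 10 arrays numbered 25150. The 25062 of them with a value on every array were tested. A gene was read by its brightest probe. The array number and the signal over background limit the precision. Genes named were the 7 members, the genes of 17 lists and, outside them, the 10 with the highest and 5 with the lowest r with *H2-Ab1*. The members and lists were chosen with earlier results of these data known. Relations were restricted to the larger cluster when the first component had a gap of at least 0.4 of its range and *H2-Ab1* parted the same mice. Tests were tried on simulated data. Alternatives covered the background, normalization, filter, slide and each mouse. Python 3.11.15 with scipy 1.17.1 was used. No deposited column of fold changes or p-values was used. Some list genes and a probe sequence are not reported here.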

Additional observations from a re-analysis of the deposited data

Results flagged for a closer look

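Among 8 class II probes and 97 measured list genes, 5 had a mouse far from the other 9, the gap to the nearest mouse being over 0.466 of the whole range (Dixon's limit, which chance passes in about 5% of groups; here 4.76% did). For *Ciita* this was mouse 4, whose gap to the next mouse came to 0.520 of the range. *Cd3e* stood apart in mouse 3 (0.471), *Krt8* in mouse 2 (0.512), and the neutrophil genes *Retnlg* (0.670) and *S100a9* (0.630) in mouse 8. The other 7 class II probes did not pass this limit.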

How the results depend on the processing

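Probes varying more in Cy5 numbered 14980, 4684 without normalization between arrays and, in an analysis chosen after seeing the data, 3556 without mice 4 to 7; leaving out each mouse gave 13513 to 14420. Class II genes among them numbered 6, against 0 and 1, and 6 without any single mouse. With slide as a block, the log2 ratio of the *Ciita* SDs turned to -1.37. Slopes on *H2-Ab1* numbered 0, and 0 without each mouse, but 13185 after median centring (14967 at an unadjusted p under 0.05) and 405 with slide as a block (2541). Exact permutation correlations gave 0 throughout, which does not show stability. Their smallest p is 0.00139 with 6 mice and larger with fewer, so a pass was hardly possible. After median centring all 6 class II slopes passed (adjusted p from 0.0114 to 0.0174). Without mice 1 and 8 the slope reversed for *H2-Aa* (-0.38), *H2-Eb1* (-0.68) and *H2-DMb1* (-0.67), and r for the same genes (-0.10, -0.71 and -0.11). *H2-DMb1* had a slope of -0.13 with slide as a block. Class II genes lowest in mice 4 to 7 numbered 4, and 0 after median centring and in the deposited values. The cause was not tested. No paired analysis was possible because all mice belong to 1 group.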
